A study of Arabidopsis thaliana with 4 samples.

Results

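The core circadian clock genes of Arabidopsis thaliana were examined for occupancy by TCP4, a CIN-type TCP transcription factor that limits cell proliferation and promotes differentiation in leaves and cotyledons. The set held 10 of 27444 protein-coding nuclear genes: the morning MYB genes CCA1 and LHY, the pseudo-response regulator genes TOC1, PRR3, PRR5, PRR7 and PRR9, GIGANTEA (GI), and the evening complex genes LUX and ELF3. The genes were chosen by their role, with earlier results of these data known. ELF4, another evening complex gene, was not in the set and is described below with other clock genes. Every summit (the position of highest signal in a peak) inside a gene or within 3000 bp of it was taken. Chromatin immunoprecipitation with sequencing (ChIP-seq) had been done with an anti-Myc antibody on whole Arabidopsis seedlings of a TCP4 overexpression genotype, labelled mTCP4, and of wild type, labelled Col. Both genotypes were kept at 4 °C for 3 days, given white light for 3 to 4 h and grown in darkness for 4 days, and each also had an input library without antibody. The sources used here do not give the promoter of the transgene, the number of independent lines or the time of day at harvest. With 1 ChIP library and 1 input library per genotype, no value below has a replicate error and no test between genotypes was possible.

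The plant clock is a set of genes that repress and activate one another in sequence through the day. CCA1 and LHY act around dawn and repress genes of the evening, the PRR proteins follow through the day and repress CCA1 and LHY, and the evening complex of LUX, ELF3 and ELF4 acts at dusk. In seedlings the evening complex and GI also act on elongation of the hypocotyl.

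The authors' deposited list for mTCP4 against Col held 7470 summits. For each summit it gives the pileup, a scaled number of fragments, and the fold. The fold is the ratio of that pileup to the control level at the same place, with 1 added to each, on a linear scale. The median fold over all summits was 3.43, with a range of 1.67 to 16.4. Each fold is followed, where its error matters, by an exact 95% Poisson interval that covers the counting error of its fragments only. The control level was held fixed, so its own error is not included and the fold intervals are too narrow. Positions are those of build TAIR10.

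A summit lay inside or within 3000 bp of 7 of the 10 core clock genes (70%), against 32.8% of all protein-coding nuclear genes. The 7 genes were CCA1, LHY, TOC1, PRR5, PRR9, GI and LUX, and together they held 11 summits. PRR3, PRR7 and ELF3 held none. With so few genes the share moves by 10 percentage points for each of them. Among the 11470 genes at least as long as PRR5, the shortest of the 10 at 2343 bp, 36.5% had a summit by the same rule. Within 500 bp the count was 5 of 10 core clock genes, against 14.8% of all genes, and within 1000 bp it was 6 of 10, against 19.7%. Limits of 2000 and 5000 bp each gave 7 of 10 core clock genes, against 26.5 and 43.9% of all genes. At least 2 summits were listed for PRR9, GI and LUX, 3 of 10 genes (30%), against 13.8% of all genes, and 3 for LUX alone (10%, against 5.36%). A summit with a fold of 5 or more was listed for PRR9, GI and PRR5, also 30%, against 9.42% of all genes.

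**Figure D1:**
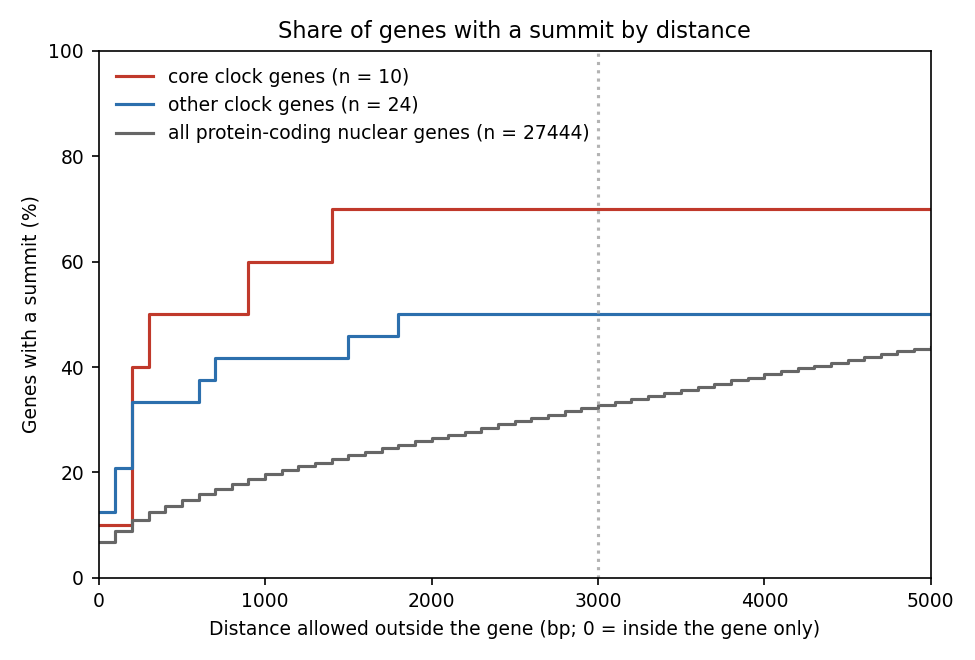
Share of genes with a summit (vertical axis, percent) when the distance allowed outside the gene grows (horizontal axis, bp), for the 10 core clock genes, 24 other clock genes and all 27444 protein-coding nuclear genes. The core clock curve is flat from 1400 bp on at 70%, whereas that of all genes continues to climb and is at 32.8% at 3000 bp (dotted line).

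Most of the genes with a summit had one close to a gene end, while other summits in range lay farther out. Of the 11, 4 lay within 500 bp outside a core clock gene (36.4%), against 19.4% of the 15133 pairs of a gene and a summit formed by the same rule over all genes. The median distance of the 10 summits outside the genes was 1107 bp, against 1312 bp over all such pairs. Only the summit at TOC1 was inside its gene (9.09%, against 14.9% of all pairs), and it lay 35 bp from the gene's lower-coordinate end. For CCA1, TOC1, PRR9, GI and LUX the nearest summit was at the lower-coordinate end, and for LHY and PRR5 at the higher-coordinate end. The gene table used gives no strand, so transcription starts and gene 3' ends were not told apart.

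**Figure D2:**
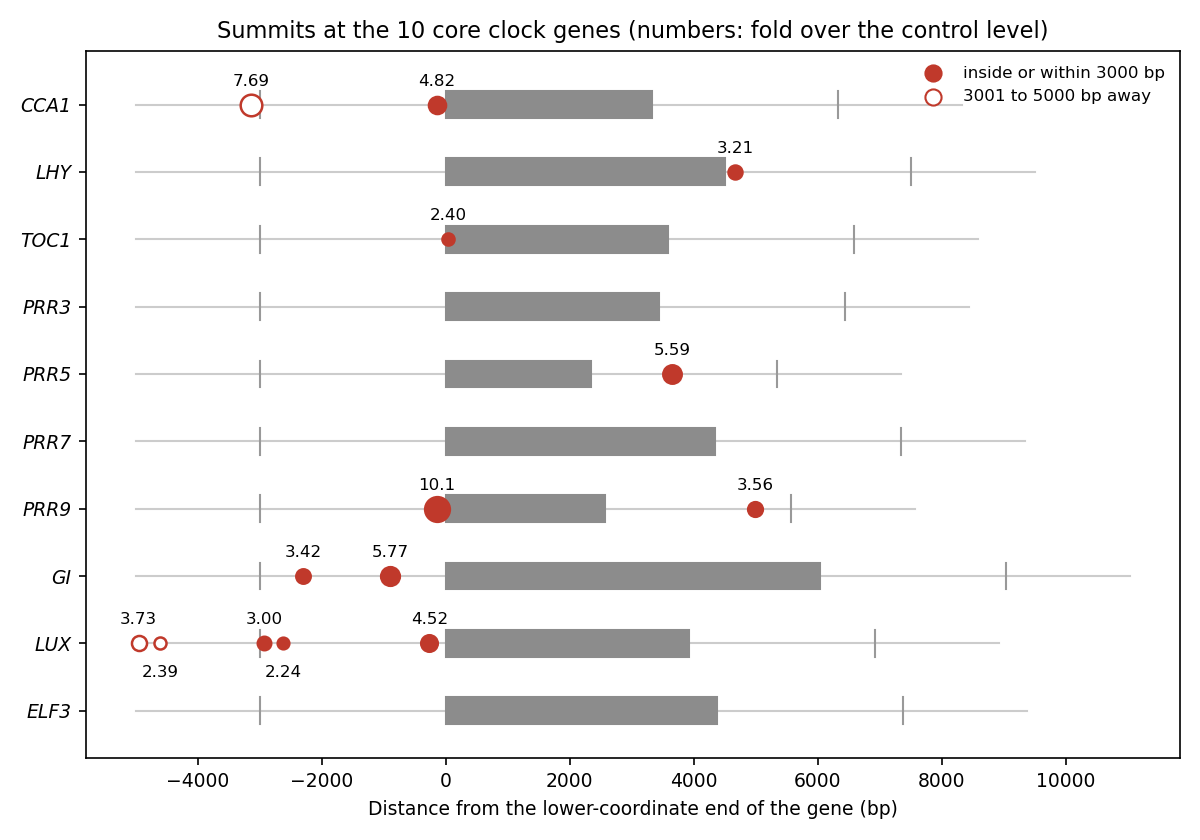
Position of each summit at the 10 core clock genes, in bp from the lower-coordinate end of the gene (grey bar: the gene; ticks: 3000 bp on either side; line: 5000 bp). Circle area and the number beside it give the fold. PRR3, PRR7 and ELF3 have no circle, and the strongest circle is at PRR9 with a fold of 10.1.

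Both morning genes had 1 summit each, close to a gene end. CCA1 (AT2G46830) and LHY (AT1G01060) encode closely related MYB-like transcription factors that share most of their functions. At CCA1 the summit stood at position 19245450 of chromosome 2, 141 bp outside the gene, with a pileup of 109.8 in mTCP4 against a control level of 22.0. Its fold was 4.82 (4.08 to 5.65), with a −log10 q of 37.5. It lay in a gap of 449 bp, 309 bp from PSI-P (AT2G46820), a thylakoid protein gene. At LHY the summit stood at position 38036 of chromosome 1, 165 bp outside the gene and 408 bp from UMAMIT28 (AT1G01070), a gene of the UMAMIT transporter family. Its pileup was 121 in mTCP4 against a control level of 37.0, which gave a fold of 3.21 (2.74 to 3.73) and a −log10 q of 24.8. The pileup intervals, 103 to 141 at LHY and 92.9 to 129 at CCA1, overlapped, whereas the fold was lower at LHY, with intervals that did not overlap. The control level at LHY was above that of 98.2% of all summits.

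The pseudo-response regulator genes were divided. PRR9, PRR5 and TOC1 had summits, and PRR3 and PRR7 had none. PRR9 (AT2G46790), the earliest of the family to be expressed after dawn, held the strongest summit of the core clock genes. This summit stood at position 19232462 of chromosome 2, 145 bp outside the gene, with a pileup of 170.2 in mTCP4 (231 fragments) against a control level of 16.0. Its fold was 10.1 (8.82 to 11.4), with a −log10 q of 106, and it ranked number 75 of the 7470 summits by fold. By the highest fold near a gene, PRR9 stood above 98.6% of the 8996 protein-coding genes with a summit. A fold of 10 or more was found near 0.488% of all genes and, among the 10 core clock genes, at PRR9 alone. The interval of the PRR9 fold, 8.82 to 11.4, holds 10, so its place above this cut-off was not resolved by counting error. A second summit in range of PRR9, at position 19237600, lay 2421 bp beyond the other end of the gene and inside its neighbour ZAT (AT2G46800), a zinc transporter gene. Its fold was 3.56 (2.83 to 4.44).

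PRR5 (AT5G24470), a repressor of the afternoon that acts on CCA1 and LHY, had its nearest summit farther out than the nearest summits of the other 6 genes. It stood at position 8359861 of chromosome 5, 1315 bp outside PRR5, and no other protein-coding gene was nearer, the next being AT5G24480 at 3970 bp. The pileup was 88.4 in mTCP4 against a control level of 15.0, with a fold of 5.59 (4.64 to 6.67) and a −log10 q of 35.5. TOC1 (AT5G61380), the member of the family that acts in the evening and at night, had the lowest fold among the genes' strongest summits. Its summit at position 24674998 of chromosome 5 had a pileup of 49.4 in mTCP4 against a control level of 20.0, a fold of 2.40 (1.87 to 3.03) and a −log10 q of 6.21. Of all summits, 9.93% had a lower fold than this one.

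For the genes without a summit in range, the nearest summits were far away. The nearest summit to PRR7 (AT5G02810), a repressor that overlaps in function with PRR9, was 12969 bp away, with a fold of 4.96. For PRR3 (AT5G60100), which is known to stabilise the TOC1 protein, it was 22046 bp away, with a fold of 3.83. For ELF3 (AT2G25930), the scaffold of the evening complex, it was 19030 bp away, with a fold of 4.79. A distance over 10000 bp to the nearest summit was found for these 3 of the 10 genes and for 37.3% of all protein-coding nuclear genes. The share of core clock genes at that distance, 30%, was thus near that of all genes. The other 7 had a summit inside or within 1400 bp, against 22.6% of all genes. That limit was read from the data.

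PRR9 and CCA1 are near neighbours on chromosome 2, with 10411 bp and 3 protein-coding genes between them. The stretch from the PRR9 summit to the CCA1 summit spans 12988 bp and held 6 summits. Between both lay the summit in ZAT, a pair inside AT2G46810 with folds of 2.79 (2.14 to 3.58) and 2.69 (2.05 to 3.46), and a stronger one, also inside AT2G46810, at position 19242449. That summit had a pileup of 129.7 in mTCP4 against a control level of 16.0 and a fold of 7.69 (6.60 to 8.90), with an interval above that of the CCA1 summit. It lay 3142 bp from CCA1, just beyond the 3000 bp limit, and is not counted among the 11. The summit just inside the limit, 2935 bp from LUX, had a fold of 3.00. Over the genome, 504 summits (6.75%) began a stretch of this length with at least as many summits, with overlapping stretches counted separately. The length was set by these 6 summits, so this stretch also ends on a summit, which the others need not. The share is therefore no even measure of how unusual the density around PRR9 and CCA1 was.

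**Figure D3:**
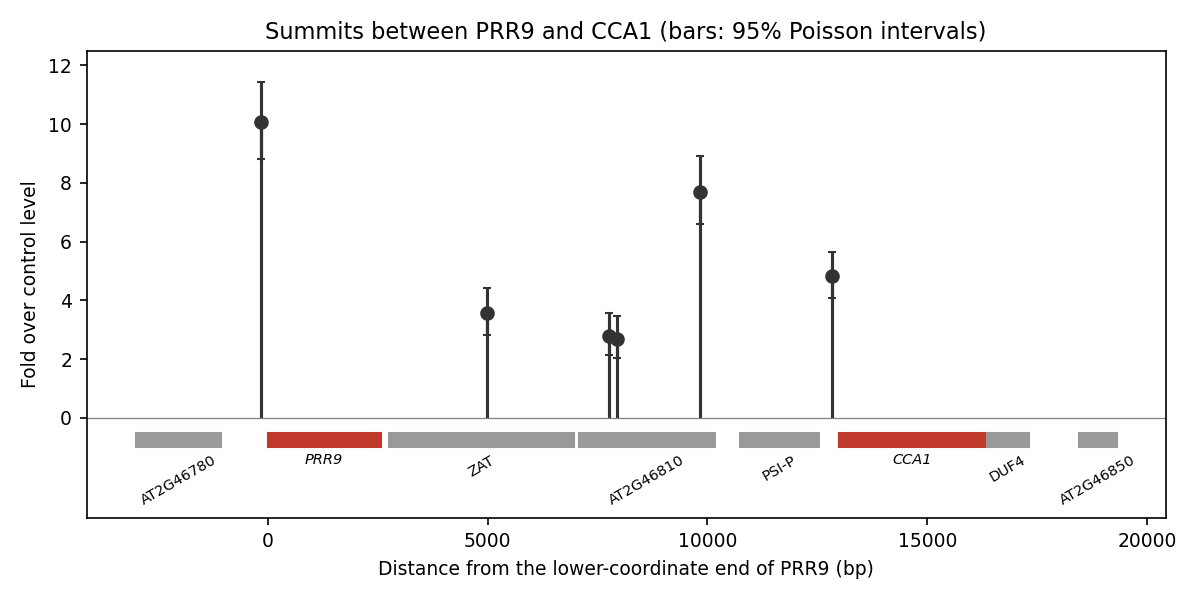
Fold of the 6 summits (points; bars are 95% Poisson intervals) along the stretch that holds PRR9 and CCA1, in bp from the lower-coordinate end of PRR9, with the protein-coding genes below (outer genes drawn to 3000 bp beyond PRR9 and CCA1). The folds are 10.1 beside PRR9, 7.69 inside AT2G46810 and 4.82 beside CCA1, and those of the other 3 summits are between 2.69 and 3.56.

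GI (AT1G22770), which encodes a large protein that stabilises the blue-light receptor ZTL and takes part in flowering by day length, had both of its summits in a single gap. The gap of 2690 bp separates GI from PAB3 (AT1G22760), a poly(A)-binding protein gene. The nearer summit, at position 8060852 of chromosome 1 and 899 bp from GI, had the highest pileup of the 11, 183 in mTCP4 (249 fragments) against a control level of 31.0. Its fold was 5.77 (5.08 to 6.52) and its −log10 q was 74.0. The other, at position 8059448, lay 2303 bp from GI and 388 bp from PAB3, with a pileup of 91.4 in mTCP4 against a control level of 26.0. Its fold of 3.42 (2.85 to 4.07) was close to the median of all summits, and its interval lay below that of the nearer summit.

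In the evening complex, LUX had summits and ELF3 had none. LUX (AT3G46640, also named PCL1) encodes the MYB-type protein through which the complex binds DNA. Its nearest summit, at position 17182778 of chromosome 3, lay in a gap of 481 bp, 264 bp from LUX and 218 bp from AT3G46630, so that LUX was not the nearer of the flanking genes. The pileup was 116 in mTCP4 against a control level of 25.0, with a fold of 4.52 (3.85 to 5.27) and a −log10 q of 37.3. The other 2 summits in range belonged to a single numbered peak and lay inside RDUF1 (AT3G46620), a RING-type ubiquitin ligase gene. They were 2628 and 2935 bp from LUX, with folds of 2.24 (1.69 to 2.93) and 3.00 (2.40 to 3.70). The first of these had the lowest fold and the lowest −log10 q (3.98) of the 11 summits.

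**Figure D4:**
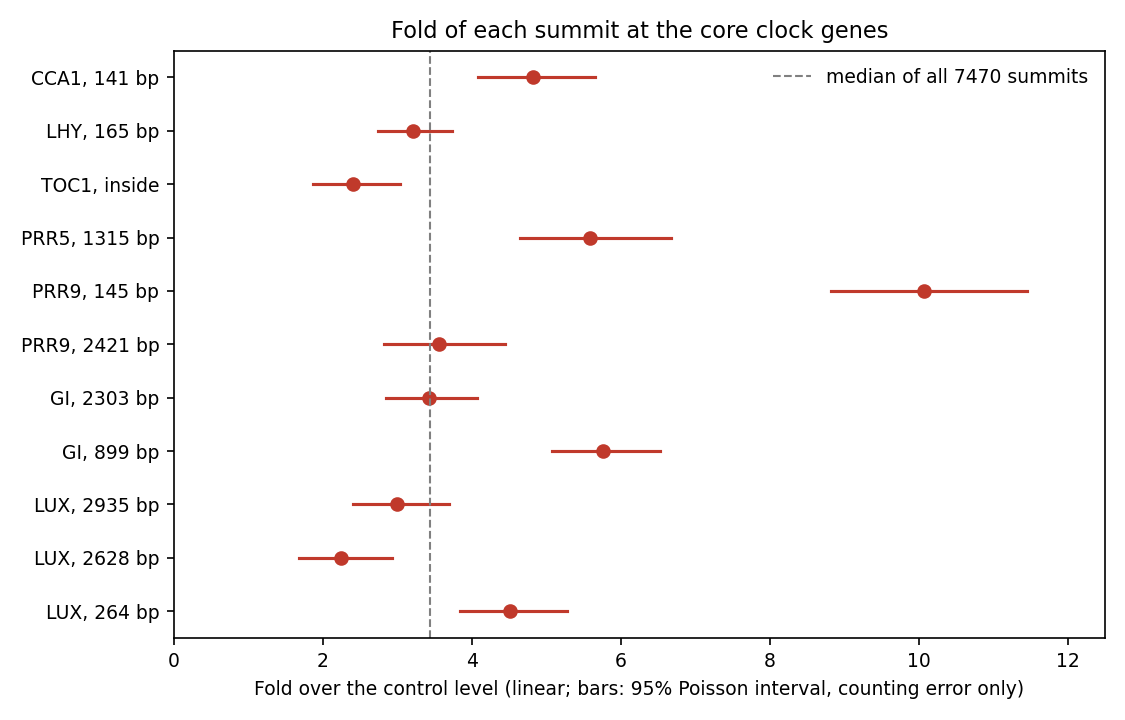
Fold (horizontal axis, linear) of each of the 11 summits at the core clock genes, with the gene and the distance outside it on the vertical axis; bars are 95% Poisson intervals and the dashed line is the median of all summits, 3.43. Only PRR9, GI, PRR5, CCA1 and LUX have a summit whose whole interval lies above the line.

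By their strongest summit the genes came in the order PRR9, GI, PRR5, CCA1, LUX, LHY and TOC1. With the control level held fixed, the interval of PRR9 lay above that of GI, and the interval of LUX above that of LHY. The error of the control level is left out, so these intervals do not settle the order by fold. The neighbours GI and PRR5, PRR5 and CCA1, CCA1 and LUX, and LHY and TOC1 had overlapping intervals, so their order was not resolved by counting error alone. The order by pileup differed: GI came first at 183, followed by PRR9 at 170.2, LHY at 121, LUX at 116, CCA1 at 109.8, PRR5 at 88.4 and TOC1 at 49.4. By pileup the intervals of GI (161 to 208) and PRR9 (149 to 194) overlapped, as did those of LHY and LUX, LUX and CCA1, and CCA1 and PRR5, so these places were not resolved either. The interval of PRR9 lay above that of LHY, and the interval of PRR5 above that of TOC1. LHY ranked number 6 by fold and number 3 by pileup, and PRR5 number 3 by fold and number 6 by pileup.

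The difference between both orders followed from the control level, which varied among the summits from 15.0 at PRR5 to 37.0 at LHY. It exceeded the median of all summits, 16.4, at 7 of the 11, and its median over the 11 was 20.0. None of the 11 stood at the lowest control level, 12.9, which 18.3% of all summits had. The median pileup of the 11 was 91.4, against 63.4 for all summits, and their median fold was 3.56, against 3.43. The part of the control level in the number of core clock genes with a summit was not tested. Taking the highest fold for each gene, the 7 genes had a median of 4.82, against 3.83 for all 8996 protein-coding genes with a summit.

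**Figure D5:**
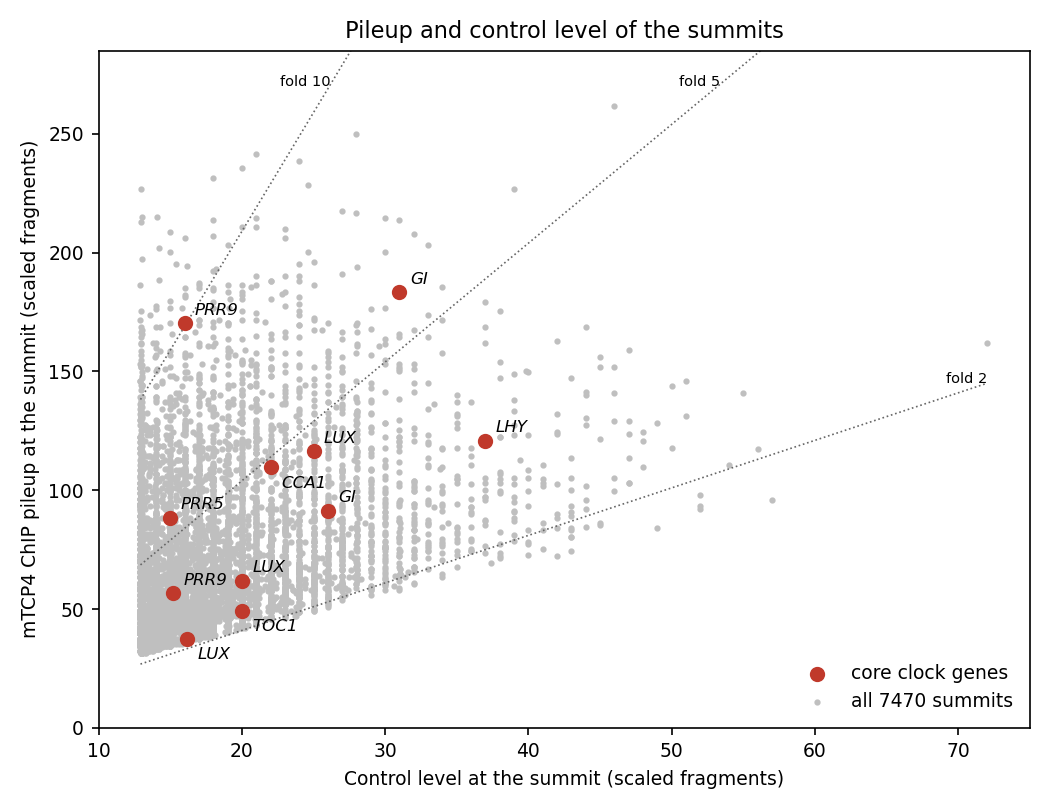
Pileup in mTCP4 (vertical axis) against the control level (horizontal axis), both on the scale of the deposited pileup, for all 7470 summits (grey) and the 11 summits at the core clock genes (red). Dotted lines mark a fold of 2, 5 and 10. PRR9 is on the line of fold 10 at a control level of 16.0, whereas LHY, at 37.0, is among the summits with the highest control level.

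For 6 of the 11 summits the core clock gene was the nearest protein-coding gene. These were 1 summit each at CCA1, LHY, TOC1, PRR5, PRR9 and GI. The other 5 were the second summits of PRR9 and GI and the 3 summits of LUX, each nearer to or inside ZAT, PAB3, AT3G46630 or RDUF1. With each summit given only to its nearest gene, 6 of the 10 genes (60%) held a summit, against 17.6% of all genes, and LUX was the gene lost.

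A list of 28 other clock genes was set beside the core genes, and 24 of the names were found in the gene table. Of these, 12 (50%) had a summit inside or within 3000 bp, against 32.8% of all genes. With each summit given only to its nearest gene, 9 of the 24 (37.5%) held a summit, against 17.6% of all genes. The names without a match were RVE3, RVE5, RVE6 and COR28. The 12 genes had a median highest fold of 3.65, below the 3.83 of all genes with a summit.

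The strongest summits of this list were at FKF1, TCP21 and TIC. FKF1 (AT1G68050), a blue-light receptor and F-box protein that works with GI, had a summit with a fold of 9.87 (8.60 to 11.3) at position 25505689 of chromosome 1. It lay 2950 bp from FKF1 but 426 bp from AT1G68040. A weaker one, with a fold of 2.81, lay 1464 bp from FKF1, and no other protein-coding gene was nearer to it. ZTL and LKP2, the other F-box proteins of this family, had no summit in range, with the nearest at 5581 and 6603 bp.

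TCP21 (AT5G08330, listed as TCP11 in the gene table with CHE among its other names) encodes a class I TCP protein that represses CCA1. A summit with a fold of 9.08 (7.91 to 10.4) lay inside the gene at position 2680605 of chromosome 5, 204 bp from the lower-coordinate end, and further summits lay 537 and 1347 bp outside that end with folds of 4.07 and 3.43, the outer one 235 bp from AT5G08320. TIC (AT3G22380), a regulator of the clock, had 5 summits. The strongest, with a fold of 7.34 (6.26 to 8.55), stood 113 bp outside the higher-coordinate end at position 7919820 of chromosome 3. The folds of the other 4, at the lower-coordinate end, were between 3.72 and 3.94, and the outermost of them was nearer to AOX1A.

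The REVEILLE genes encode MYB-like proteins related to CCA1 and LHY, and summits lay near RVE1, RVE2 and RVE7 but not near RVE4 or RVE8. At RVE7 the fold was 3.75 (2.98 to 4.66), at 507 bp from the gene and 175 bp from AT1G18335. RVE2 had a fold of 3.04 (2.31 to 3.92) at 128 bp, and a further one of 3.30 (2.54 to 4.22) that was nearer to AT5G37270. At RVE1 the fold was 2.93 (2.22 to 3.80), at 1745 bp from RVE1 and 1741 bp from UGP2. All 3 highest folds had intervals that held the median of all summits, 3.43. For RVE4 and RVE8, activators of evening genes, the nearest summits were 23936 and 17706 bp away. Among the LNK genes, whose products are coactivators of RVE8, LNK2 had a fold of 4.34 at 136 bp, LNK3 2.91 at 10 bp and LNK4 3.17 inside the gene, whereas the nearest summit to LNK1 was 11243 bp away. GRP8, an RNA-binding protein under clock control, had a summit inside the gene with a fold of 3.75. The summit nearest to its relative GRP7 was 6760 bp away.

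BOA (AT5G59570), the closest relative of LUX, had 3 summits within 3000 bp, at 90, 154 and 237 bp outside the gene, with folds of 3.01, 3.00 and 3.30. The summit at 154 bp was nearer to UGT76E1, at 91 bp. The summits at 90 and 237 bp were also in range of its neighbour SRR1 (AT5G59560), a regulator of clock and light responses. SRR1 had 5 summits in range with folds of 2.58 to 3.55, of which the highest, at position 23999840 of chromosome 5, lay inside RDUF2, a relative of RDUF1, and the outer pair lay in or beside AT5G59540. LUX and BOA thus each had a summit within 300 bp, although that of LUX was nearer to AT3G46630. The summits inside RDUF1 were in range of LUX, whereas the summit inside RDUF2 was in range of SRR1 but not of BOA. The pairing of each gene with an RDUF gene was read from the data, and its frequency among other genes was not tested. The summit nearest to ELF4, the remaining gene of the evening complex, was 6169 bp away. LWD1, LWD2, JMJ30, COR27 and XCT also had no summit in range, with the nearest between 7721 and 18792 bp away.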

How the data were processed

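Anti-Myc ChIP-seq of mTCP4 and Col seedlings was used as 1 deposited peak list of mTCP4 against Col. Per the submitters' processing notes, Bowtie 0.12.9 and MACS2 2.1.1 were used with build TAIR10. The sources used here name neither the control library nor the threshold of the peak calls. The deposited list gives, per the file headers, the pileup as a signal, the fold as a ratio, and p-values and q-values as −log10. The deposited intervals are 5000 bp to either side for 7469 of the 7470 summits, so summits were used and not intervals.

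The control level was recovered as (pileup + 1)/fold − 1. All pileups were whole multiples of 0.737 within 0.01, taken as fragments, and a Poisson distribution returned every deposited p-value from both values within 0.05 on the log10 scale (100% of summits). Library totals were not analysed here. The median summit had 86 fragments, with a range of 43 to 355.

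Genes came from the RefSeq table of TAIR10.1, and distances combine it with the list. When the summits were moved along the chromosomes in 100 bp steps, up to 1000 bp either way, the share inside genes was lowest with no move. Calculations used Python 3.11.15, pandas 2.3.3 and scipy 1.17.1, and were tested on simulated data. No sequence was used here, so the planned motif searches were not run. The members and lists were chosen with earlier results of these data known. All 10 core genes are named, with every other clock gene that held a summit. Genes are not replicates. Distance limits, q and fold thresholds, the lowest control level, nearest genes, 1 summit per numbered peak and longer genes were tried as alternatives, and a limit of 5000 bp was added after the data were seen.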

Additional observations from a re-analysis of the deposited data

How the results depend on the processing

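The number of core clock genes with a summit, 7, was 5 to 7 under all alternatives except summits inside the gene only (1, TOC1) and summits at the lowest control level (0). Core summits, 11 as reported, numbered 7, 6 and 5 within 2000, 1000 and 500 bp and 1 inside genes. They numbered 14 within 5000 bp, 10 and 9 with q below 1e-05 and 1e-10, and 10 with 1 summit per numbered peak. They numbered 6 with the upper 50% by fold, 6 with nearest genes and 0 at the lowest control level, where no median could be given. Their median fold, 3.56, was 4.82, 4.67 and 4.52 within 2000, 1000 and 500 bp, 3.65 within 5000 bp and 2.40 inside genes. It was 4.04 with q below 1e-05 or 1 summit per numbered peak, and 4.52 with q below 1e-10. With the upper 50% or nearest genes it was 5.20. Other clock genes, 12 as reported, numbered 10 and 8 within 1000 and 500 bp and 3 inside genes. They numbered 10 with q below 1e-10, 9 with nearest genes, 7 with the upper 50% and 5 at the lowest control level. The share of all genes, 32.8%, was 26.5, 19.7 and 14.8% within 2000, 1000 and 500 bp, 6.75% inside genes and 43.9% within 5000 bp. It was 31.7 and 24.9% with q below 1e-05 and 1e-10, 19.7% with the upper 50%, 6.90% at the lowest control level, 17.6% with nearest genes and 36.5% among longer genes. The fewer summits, and the higher median fold with the upper 50% by fold, follow from how each alternative selects them. Selection by q also tends to keep summits of high fold. No paired analysis was possible because each group has 1 library.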
